A study of Talaromyces pinophilus with 6 samples.

Results

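A glucoamylase gene and 3 α-amylase genes of *Talaromyces pinophilus* were followed in RNA sequencing libraries of a mutant and its parental strain. The 4 genes are *TP12319* (glucoamylase), *TP03368*, *TP04014*/*Amy13A* and *TP07411* (α-amylases), chosen for their known role in starch breakdown, out of 11632 genes listed in any library. All 4 are among the genes that the study of these libraries called changed in them. A gene of these enzymes that it did not call changed is outside this set. Transcripts of *TP12319*, *TP03368* and *TP04014* were higher in the mutant. Those of *TP07411* were higher in the parental strain, but at very low counts, 3 in the mutant and 33 in the parental strain over all libraries. That last difference was not past the threshold used here under 10 of 17 alternative settings. The mutant Δ*TP05746* (genotype TP05746 TpKu70 double KO, 3 libraries) lacks the gene of a Zn2Cys6 zinc cluster protein, and the parental strain Δ*TpKu70* (genotype TpKu70 KO, 3 libraries) carries that gene. Both derive from strain 1-95 and both lack *TpKu70*, a gene of DNA end joining, so by design the strains differ in *TP05746*. In all 6 libraries, the mycelium had spent 12 h on soluble corn starch (1%, w/v) after growth on glucose. The comparison asks how the loss of *TP05746* changes the transcripts of starch-degrading enzymes early in growth on starch. The sources used here name several Δ*TP05746* transformants and do not say which was sequenced, nor whether each library had its own culture, so the spread behind each p-value is that of these libraries and may be technical.

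Starch is a chain of glucose units, and filamentous fungi secrete a set of enzymes that break it down outside the cell. An α-amylase, usually of family GH13, acts first on gelled starch and thins it by cutting at inner bonds. Glucoamylase then trims the pieces unit by unit to free sugar, and the maltose that remains is a substrate of α-glucosidases. A starch-binding domain of family CBM20 lets some of these enzymes hold on to starch granules. The supplementary annotation of the study gives *TP03368* and *TP04014* a GH13 and a CBM20 domain. In *Aspergillus* and its relatives these genes are switched on by starch and maltose through the zinc cluster regulator AmyR and held down by glucose through CreA.

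The libraries held between 4091718 and 4696455 expected counts, which are the fragments that RSEM assigned to genes. The 10 most abundant genes took 7.5% to 8.6% of the counts in Δ*TP05746* and 15.2% to 23.0% in Δ*TpKu70*. Counts were therefore scaled with TMM factors (1.31 to 1.37 in Δ*TP05746*, 0.667 to 0.877 in Δ*TpKu70*) and are given as CPM, counts scaled to a common library size. The deleted gene *TP05746* had 0 counts in all 3 Δ*TP05746* libraries and 135, 42 and 28 in Δ*TpKu70*. Δ*TpKu70* replicate 1 stood apart, with correlations across genes of 0.712 to 0.733 with the Δ*TP05746* libraries, against 0.591 to 0.641 for the other 2 Δ*TpKu70* libraries, so the fold changes of the 4 genes are also given without it. The threshold was a Benjamini-Hochberg adjusted p of 0.05 or less in edgeR's two-sided quasi-likelihood test, adjusted over all genes tested, together with a log2 fold change of 1 or more in either direction. Of the 8522 genes tested, those with an FPKM (a level scaled for gene length and library size) of at least 1 in at least 3 libraries, 18.2% were past the threshold and higher in Δ*TP05746*, 20.5% were past it and lower, and 38.7% were past it in either direction.

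The glucoamylase gene and 2 α-amylase genes rose in Δ*TP05746*, and the third α-amylase gene, *TP07411*, was lower there in a test that included genes of low level. *TP12319*, *TP03368* and *TP04014* passed the filter, and each reached an FPKM of 1 in 3 Δ*TP05746* libraries and in 0, 0 and 1 Δ*TpKu70* libraries. A gene that passes through its high group alone has to differ, so the number past the threshold is no measure of the group. *TP07411* reached an FPKM of 1 in 1 library, Δ*TpKu70* replicate 2, and was left out. All 4 genes were therefore also tested without the filter, over all 11632 genes, of which 12.9% were then past the threshold and higher, 15.3% past it and lower and 28.2% past it in either direction. Whether a difference stems from less RNA per cell or from fewer cells of a kind cannot be told apart in such bulk libraries.

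**Figure D1:**
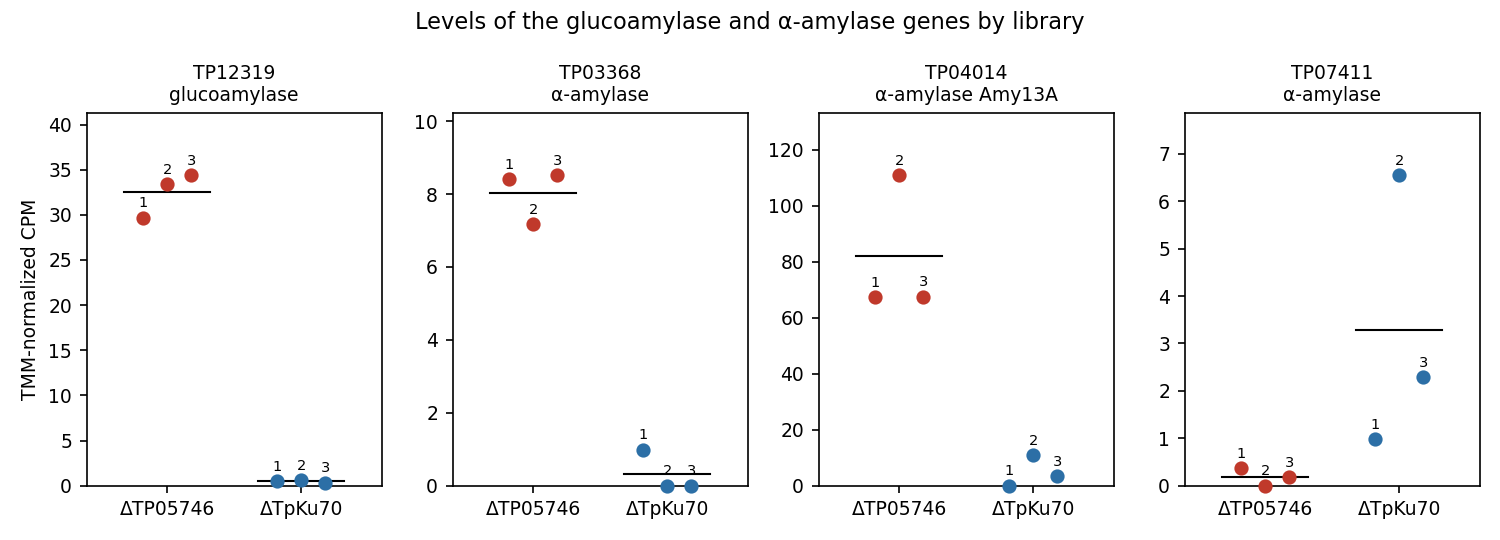
TMM-normalized CPM (vertical axes, linear, from 0) of the 4 genes in the 3 ΔTP05746 libraries (red, left) and the 3 ΔTpKu70 libraries (blue, right), with replicate numbers above the points and lines at the means (none for TP04014 in ΔTpKu70, where 1 library lists it at 0). The strains do not overlap for any of the 4 genes, and TP07411 alone is higher in ΔTpKu70. Such a lack of overlap held for 25.4% of all listed genes with ΔTP05746 higher and for 25.0% with it lower.

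The glucoamylase gene *TP12319*, whose product frees glucose from the chain ends, had the highest fitted log2 fold change of the 4, though *TP04014* was above it with limma on log2(FPKM + 1) and log2(TPM + 1), and *TP03368* without Δ*TpKu70* replicate 1. It had 159, 191 and 190 expected counts in Δ*TP05746* replicates 1, 2 and 3, against 2, 2 and 1 in Δ*TpKu70*. The Δ*TP05746* libraries lay close together, and every one was far above all Δ*TpKu70* libraries. The mean level was 32.5 ± 2.50 CPM in Δ*TP05746* and 0.472 ± 0.136 CPM in Δ*TpKu70* (SD, n = 3 each). Pooled over libraries, 540 counts in Δ*TP05746* stood against 5 in Δ*TpKu70*, a ratio of 68.2 after scaling, with a 95% interval of 29.1 to 211 (exact binomial, counting error only). The log2 fold change was 6.01 (standard error 0.333), with an adjusted p of 0.000186 in edgeR's quasi-likelihood test, and 6.03 without Δ*TpKu70* replicate 1. Its counts were whole numbers in all 6 libraries, so they show no split of fragments with another gene. By log2 fold change, counted from the highest, *TP12319* ranked 109 of the 8522 genes tested, and 30 of the 6922 with whole counts only.

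Within each library the same shift appeared in the rank of *TP12319*, a measure that does not use the scaling between libraries. By FPKM it lay above 61.9%, 64.1% and 64.6% of all listed genes in Δ*TP05746*, and above 19.3%, 19.0% and 17.4% in Δ*TpKu70*. In Δ*TP05746* the gene thus sat in the upper middle of the range of transcript levels, and in Δ*TpKu70* among the least abundant genes detected.

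*TP03368*, an α-amylase gene with a starch-binding domain, was low in Δ*TP05746* and nearly absent from Δ*TpKu70*. It had 45, 41 and 47 expected counts in Δ*TP05746*, against 4, 0 and 0 in Δ*TpKu70* replicates 1, 2 and 3. All of its Δ*TpKu70* counts came from replicate 1, the library that stood apart. The level was 8.03 ± 0.741 CPM in Δ*TP05746* and 0.329 ± 0.569 CPM in Δ*TpKu70* (SD, n = 3 each), and edgeR's quasi-likelihood test put the log2 fold change at 4.35 ± 0.862 (SE), with an adjusted p of 0.00741. The pooled ratio, 133 counts against 4, was 21.0 with a 95% interval of 8.02 to 78.2 from counting error. In the other 2 Δ*TpKu70* libraries a count of 0 allows up to 3 counts, or 0.893 and 0.980 CPM. Against that floor of 3 counts per library, without Δ*TpKu70* replicate 1, *TP03368* was at least 8.58-fold higher in Δ*TP05746*. Its counts were also whole in every library, and it ranked 176 of the 8522 genes tested and 77 of the 6922 with whole counts.

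*TP04014*/*Amy13A*, the other α-amylase gene with a starch-binding domain, was the most abundant of the 4 in Δ*TP05746*. Its expected counts were 360.39, 635.05 and 372.98 in Δ*TP05746*, against 0, 36.21 and 10.08 in Δ*TpKu70* replicates 1, 2 and 3. The lowest Δ*TP05746* library was above the highest Δ*TpKu70* library on each scale, at 67.3 against 10.8 CPM. Within Δ*TP05746* the libraries were spread out, with replicate 2 at 111 CPM against 67.3 and 67.6 CPM in replicates 1 and 3. The log2 fold change was 4.16 (standard error 0.994), with an adjusted p of 0.0149 in edgeR's quasi-likelihood test. It was 3.51 (adjusted p = 0.00122) without Δ*TpKu70* replicate 1 and 5.77 (adjusted p = 0.0104) without Δ*TpKu70* replicate 2. The call was lost without Δ*TP05746* replicate 2, at 3.87 with an adjusted p of 0.0512.

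The counts of *TP04014* had decimals in the 5 libraries where it was listed, so RSEM split fragments between it and at least one other gene model. The decimals of no single gene completed those of *TP04014* to a whole number (within 0.015) in more than 2 of the 5 libraries, and the other gene model was not identified. Of 340 genes listed at 0 in a library and at 100 counts or more in another, 298 (87.6%) had decimals, against 20.0% of all listed genes. The β-tubulin gene *TP10751* was listed at 0 in 5 of the 6 libraries and at 12.99 counts in Δ*TpKu70* replicate 2. Whether such zeros stem from the split of fragments was not tested. The 0 of *TP04014* in Δ*TpKu70* replicate 1 is therefore reported as listed at 0, and no mean is given for that strain.

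*TP07411*, the third α-amylase gene, went the other way at very low counts. It had 2, 0 and 1 expected counts in Δ*TP05746*, against 4, 22 and 7 in Δ*TpKu70* replicates 1, 2 and 3. The strains did not overlap, but the gap between the nearest libraries was 2 against 4 counts, and Δ*TpKu70* replicate 2 held 22 of the 33 counts in that strain. A count of 0, as in Δ*TP05746* replicate 2, allows up to 0.525 CPM. The mean was 0.185 ± 0.187 CPM in Δ*TP05746* and 3.27 ± 2.91 CPM in Δ*TpKu70* (SD, n = 3 each). The pooled ratio, 3 counts against 33, was 0.0574 with a 95% interval of 0.0113 to 0.183 from counting error.

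Without the filter, *TP07411* had a log2 fold change of −3.93 (standard error 1.09), with an adjusted p of 0.0321 in edgeR's quasi-likelihood test. It was −4.38 without Δ*TpKu70* replicate 1, still past the threshold, and −2.95 (adjusted p = 0.125) without Δ*TpKu70* replicate 2. The call was also lost without Δ*TpKu70* replicate 3 (adjusted p = 0.0556) and without Δ*TP05746* replicate 1, 2 or 3 (adjusted p = 0.0634, 0.0857 and 0.102). In the same fit *TP12319*, *TP03368* and *TP04014* had log2 fold changes of 6.04, 4.39 and 4.20, with adjusted p = 0.00016, 0.0123 and 0.0163. Over all listed genes, 25.4% were higher in every Δ*TP05746* library than in any Δ*TpKu70* library and 25.0% lower, and among the 8522 genes tested 32.1% and 29.9%, so the lack of overlap seen for these 4 genes was common. An exact permutation test of the FPKM of each gene gave p = 0.1 (two-sided), the smallest that 3 libraries against 3 allow.

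**Figure D2:**
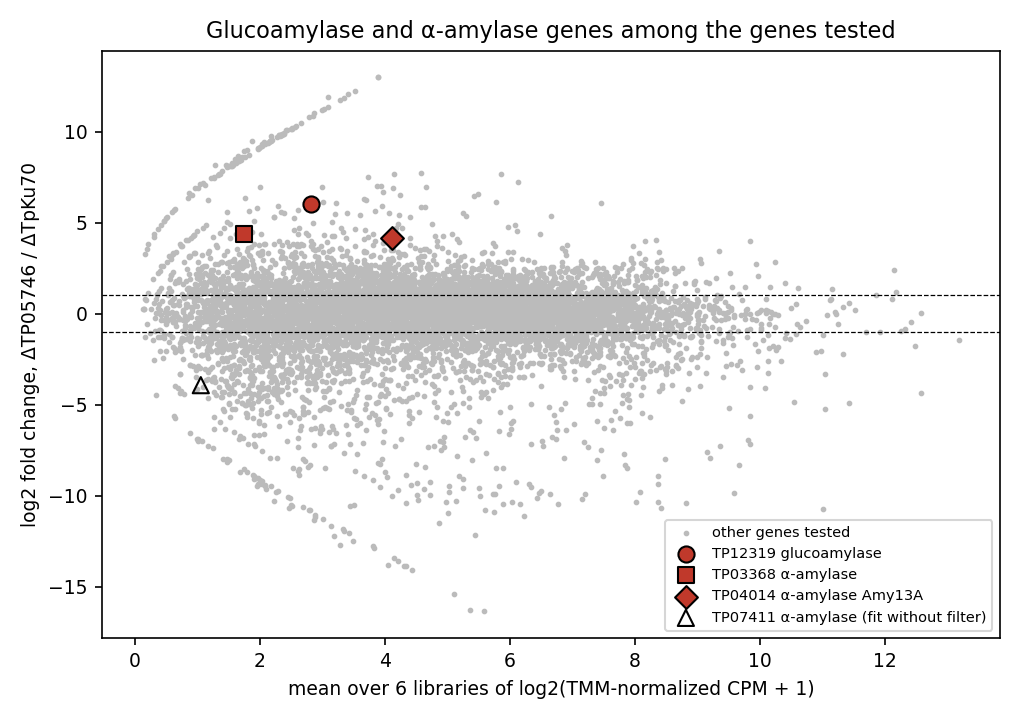
Log2 fold change of ΔTP05746 over ΔTpKu70 (vertical axis) against the mean of log2(CPM + 1) over the 6 libraries (horizontal axis) for the 8522 genes tested (grey) and the 4 genes, with dashed lines at log2 fold changes of −1 and 1. TP12319, TP03368 and TP04014 (filled) stand at 6.01, 4.35 and 4.16, and TP07411 (open, from the test without the filter) at −3.93.

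FPKM allows genes of different length to be set side by side. In every Δ*TP05746* library the order was *TP04014*, *TP12319*, *TP03368* and then *TP07411*. *TP04014* had 31.45, 55.58 and 32.94 FPKM there, *TP12319* 16.77, 20.27 and 20.33 FPKM, and *TP03368* 4.08, 3.73 and 4.31 FPKM. These ranges did not overlap, and *TP07411* was at 0.2 FPKM or less. In Δ*TpKu70*, *TP04014* was the highest of the 4 in replicates 2 and 3, at 3.02 and 0.86 FPKM, followed by *TP07411* at 2.11 and 0.69 FPKM. Replicate 1 gives no order, since *TP04014* was listed at 0 there. *TP07411* made up 0.381%, 0% and 0.173% of the summed FPKM of the 4 genes in Δ*TP05746* and 41.3%, 39.6% and 41.8% in Δ*TpKu70*. The Δ*TpKu70* shares rest on few counts, and that of replicate 1 takes *TP04014* as 0, so it is an upper limit if the gene was missed there.

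The ratio of *TP04014* to *TP12319* was 1.88, 2.74 and 1.62 in Δ*TP05746*. In Δ*TpKu70* it was 0, 15.1 and 8.60, on 1 or 2 counts of *TP12319* a library, so these values give no more than their order of size. The ratio of *TP12319* to *TP03368* was between 4.11 and 5.43 in Δ*TP05746*, and it could not be formed in the 2 Δ*TpKu70* libraries where *TP03368* was listed at 0.

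Among the 14 starch-degrading genes that the study called changed in these same libraries, the 4 genes held a far larger part in Δ*TP05746*. Any starch-degrading gene that the study did not call changed is outside this share. The summed FPKM of the 4 genes was 52.5, 79.6 and 57.7 in Δ*TP05746*, against 0.920 (with *TP04014* as 0), 5.33 and 1.65 in Δ*TpKu70*. The summed FPKM of the 10 α-glucosidase genes was lower in Δ*TP05746*, at 122, 115 and 112 in Δ*TP05746* and 153, 336 and 216 in Δ*TpKu70*. The Δ*TpKu70* sums rest in part on single genes in single libraries. *TP03913* gave 36.98 FPKM in replicate 1, against 0.46 and 0.53 in replicates 2 and 3, and *TP05120* gave 171.2 FPKM in replicate 2. As a share of the FPKM of all 14 genes, the glucoamylase and α-amylase genes made up 30.1%, 40.9% and 34.1% in Δ*TP05746* and 0.597%, 1.56% and 0.760% in Δ*TpKu70*. These shares are taken within a library and do not depend on the scaling between libraries, but 0.597% in Δ*TpKu70* replicate 1 also takes *TP04014* as 0.

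**Figure D3:**
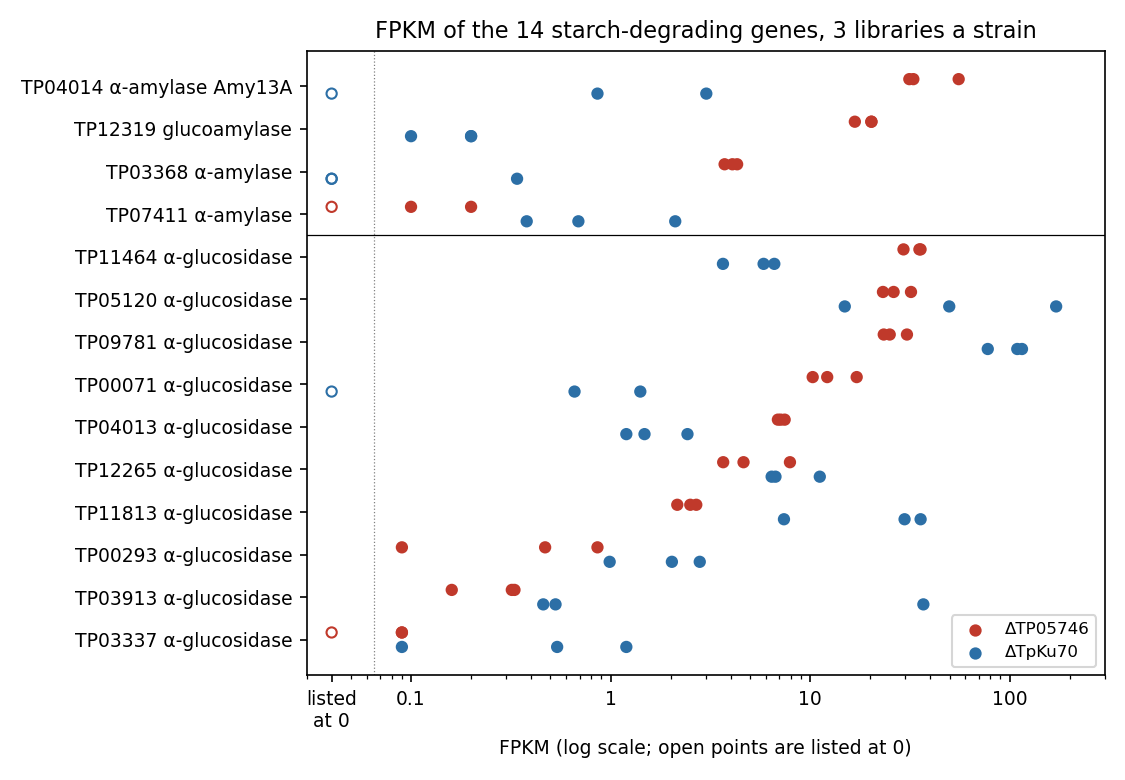
FPKM (horizontal axis, log scale, with an open point at the left for a gene listed at 0) of the 4 glucoamylase and α-amylase genes (above the line) and the 10 α-glucosidase genes (below it), with the 3 ΔTP05746 libraries in red above the 3 ΔTpKu70 libraries in blue for each gene. TP04014, TP12319 and TP03368 lie at 3.73 FPKM or more in every ΔTP05746 library, while the α-glucosidase genes moved in both directions.

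The study took the 10 α-glucosidase genes from those it called changed in these same libraries. How many of them pass the threshold is therefore no measure of the group. Of the 10, 7 were tested, and 3 were higher in Δ*TP05746* (18.2% of all genes tested), 3 lower (20.5%) and 1 (*TP05120*) not past the threshold. *TP05120* was also past it and lower with DESeq2 (adjusted p = 0.00772) and without Δ*TpKu70* replicate 1 (log2 fold change −2.85, adjusted p = 0.00228 from edgeR). Without the filter 3 were higher and 4 lower (12.9% and 15.3% of all genes), but not the same 7 genes. *TP00293* and *TP03913* were then past the threshold and *TP12265* was not (adjusted p = 0.0523 from edgeR). *TP03913* had 724, 9 and 10 counts in Δ*TpKu70*, against 3, 6 and 6 in Δ*TP05746*. Its fold change thus rests mainly on Δ*TpKu70* replicate 1, the library that stood apart. The 7 α-glucosidase genes tested with the filter had a median log2 fold change of −1.34, against 0.0285 over all genes tested. *TP11464*, which was higher, followed *TP12319* within Δ*TP05746*, where the FPKM ratio of *TP12319* to *TP11464* was 0.570, 0.566 and 0.575. That ratio was 0.0342, 0.0302 and 0.0273 in Δ*TpKu70*, lower in every library of that strain. Against *TP09781*, the α-glucosidase gene with the highest mean FPKM in Δ*TpKu70*, the ratio of *TP12319* was 0.669, 0.662 and 0.868 in Δ*TP05746* and 0.00257, 0.00183 and 0.000866 in Δ*TpKu70*. *TP04013*, whose gene number directly precedes that of *TP04014*, rose by a log2 of 1.37 (edgeR's quasi-likelihood test, adjusted p = 0.00693). The FPKM ratio of *TP04014* to *TP04013* was 4.41, 8.06 and 4.42 in Δ*TP05746* and 0, 2.04 and 0.717 in Δ*TpKu70*.

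Of the 3 regulators of amylase genes, AmyR (*TP09286*) and Rfx1 (*TP06128*) were higher, as were 18.2% of all genes tested, and BglR (*TP00292*) was not past the threshold. The study named AmyR and BglR among the genes it called changed in these same libraries. The number of regulators past the threshold is therefore no measure of the group. *TP00292* was listed at 0 in replicate 2 of each strain and had decimals in the other 4 libraries. Its log2 fold change of −0.0844 had a standard error of 1.28, so a change in either direction could be missed. *TP09286*/*AmyR* had 376, 701 and 438 expected counts in Δ*TP05746*, against 161, 140 and 119 in Δ*TpKu70*, and its log2 fold change of 1.18 had a standard error of 0.246 (edgeR's quasi-likelihood test, adjusted p = 0.00897). Its log2 fold change was 0.90 without Δ*TP05746* replicate 2, under the minimum of 1. *TP04014* and *TP09286* were both highest in that library, and the FPKM ratio of *TP04014* to *TP09286* was 0.842, 0.794 and 0.747 in Δ*TP05746*. In Δ*TpKu70* the ratio was 0, 0.227 and 0.0744, which did not overlap. For *TP12319* the ratio to *TP09286* was 0.449, 0.290 and 0.461 in Δ*TP05746* and 0.0131, 0.015 and 0.00865 in Δ*TpKu70*. *TP06128*/*Rfx1* rose by a log2 of 1.36 (adjusted p = 0.00557 from the same test), also less than *TP12319* and *TP04014*. Neither change was set against the larger ones by a test.

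The genes most like each tested gene were taken as the 3 with the smallest root mean square difference between profiles of log2(CPM + 1) over the 6 libraries, each centred on its own mean. For *TP12319* these were *TP13454*, *TP04670* and *TP05250*, at differences of 0.126, 0.134 and 0.150, and all 3 were listed at 0 in Δ*TpKu70* with decimals in their Δ*TP05746* counts. For *TP03368* they were *TP01446*, *TP01684* (annotated as an ammonium permease) and *TP09143*, at 0.141, 0.144 and 0.156, and 270 genes lay within 0.5 of it. The added 1 shrinks differences near 0 CPM, so a like profile need not mean a like fold change. *TP01446* had a log2 fold change of 2.60, against 4.35 for *TP03368*. For *TP04014* the nearest was the α-glucosidase gene *TP00071*, at 0.632, followed by *TP12533* and *TP11466* at 0.634 and 0.671. No tested gene lay within 0.5 of *TP04014*, against 63 for *TP12319*. *TP00071*, which is annotated with a GH31 and a CBM20 domain, had 319.87, 192.98 and 225.89 expected counts in Δ*TP05746* and 0, 27.55 and 12.65 in Δ*TpKu70*. Like *TP04014*, it had decimals in its counts and was listed at 0 in Δ*TpKu70* replicate 1. *TP00071* and *TP12265* were no longer past the threshold with the replicate number as a block (adjusted p = 0.0759 and 0.0991 from edgeR). The call of *TP00071* was also lost without Δ*TP05746* replicate 1, 2 or 3 and without Δ*TpKu70* replicate 3 (adjusted p = 0.0576 to 0.0874 from edgeR). That of *TP12265* was also lost with library totals (log2 fold change −0.479, adjusted p = 0.317 from edgeR). It was lost too without Δ*TP05746* replicate 2 or 3 and without Δ*TpKu70* replicate 2 or 3.

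Conidia, the asexual spores, are the other cell type that a mycelial culture can hold. Of 3 conidial genes, RodA (*TP05897*) and WetA (*TP05733*) were past the threshold and lower in Δ*TP05746*, as were 20.5% of all genes tested. VosA (*TP10901*) went the other way, with a log2 fold change of 1.24, and was not past it (adjusted p = 0.316 from edgeR). None of the 3 was past it without the filter. With library totals RodA and WetA were at −2.545 and −0.259, not past it (adjusted p = 0.0616 and 0.534 from edgeR). RodA was also not past it with DESeq2 (adjusted p = 0.052). Neither gene was past it with the replicate number as a block (adjusted p = 0.105 and 0.0885 from edgeR). With limma on log2(FPKM + 1) RodA was past it and WetA was not (adjusted p = 0.0129 and 0.401). The study named all 3 among the genes it called changed in these same libraries. The number past the threshold is therefore no measure of the group. The summed level of the 3 genes was 12.4 to 22.0 CPM in Δ*TP05746* and 17.8 to 34.6 CPM in Δ*TpKu70*, ranges that overlap. The conidial hydrophobin gene *TP05897* was at 2, 0 and 0 counts in Δ*TP05746* and at 3, 5 and 7 in Δ*TpKu70*. The part of conidia in the changes of the starch-degrading genes was not tested.

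**Figure D4:**
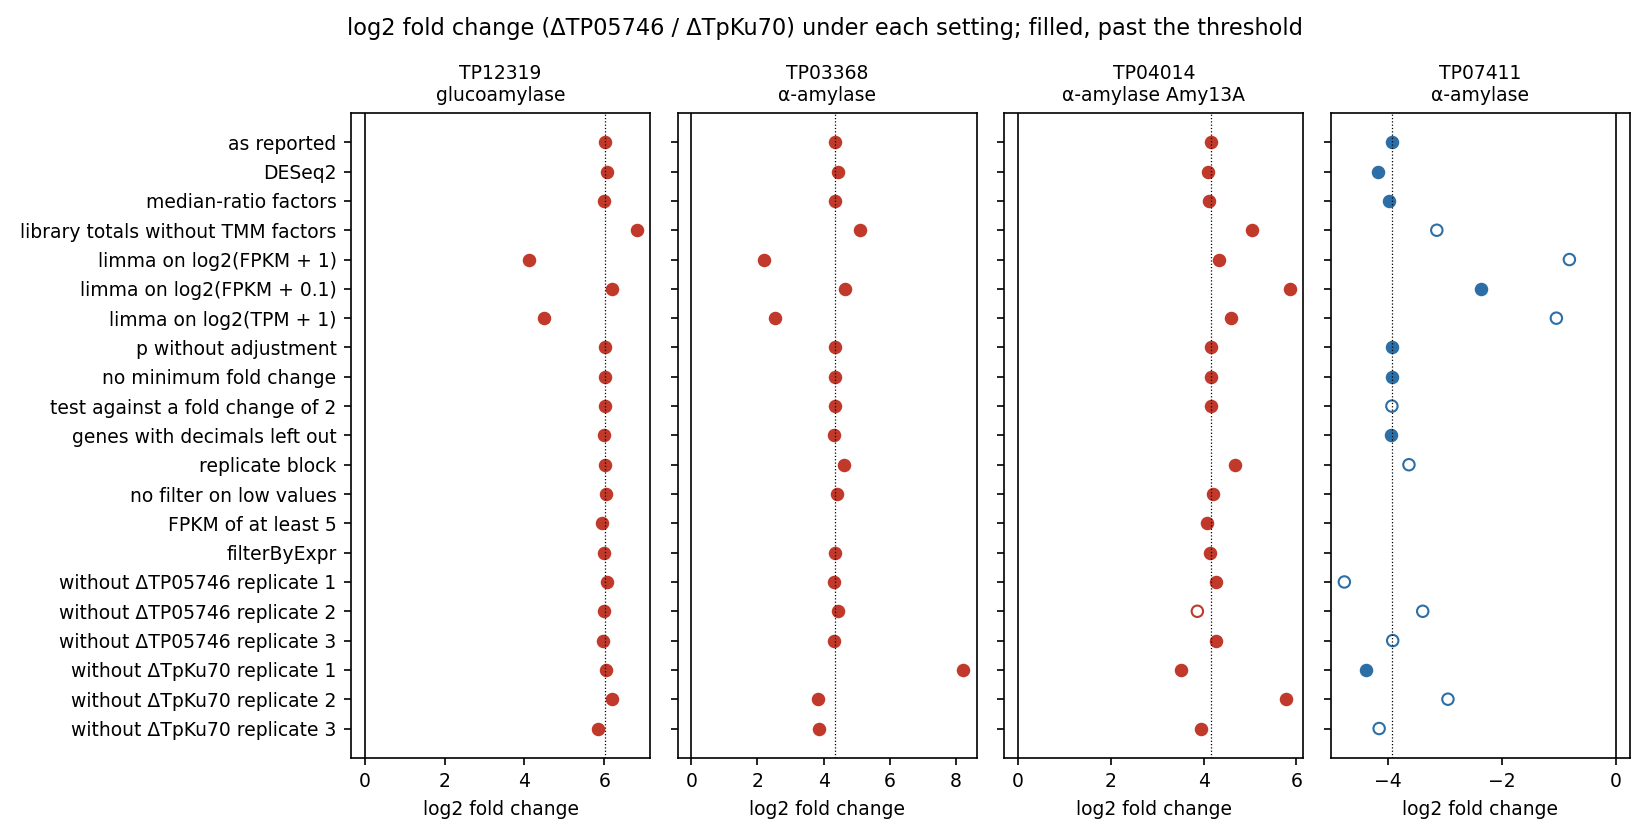
Log2 fold change of ΔTP05746 over ΔTpKu70 (horizontal axes) of the 4 genes under each setting (rows), with filled points past the threshold, open points not, and a dotted line at the reported value. TP12319 and TP03368 are filled under every setting that could test them, TP04014 is open without ΔTP05746 replicate 2, and TP07411, fitted without the filter, is open under 10 of 17 alternatives. The settings with unadjusted p and with no minimum fold change only loosen the threshold and can lose no call.

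The direction of all 4 genes was the same under every alternative. The alternatives with unadjusted p and with no minimum fold change keep the same fit and only loosen the threshold. No call could be lost under them, so they add no support to the counts that follow. *TP12319* was past the threshold under all 20 alternatives, with log2 fold changes of 4.1 to 6.81 and adjusted p of 5.53e-16 to 0.00445. *TP03368* was past it under all 19 that could test it, with adjusted p of 2.45e-05 to 0.0289, and *TP04014* under 18 of 19, with adjusted p of 0.000295 to 0.0512. *TP07411* was past it under 7 of 17, with adjusted p of 0.00871 to 0.125. Scaling by library totals in place of TMM factors moved the median over all genes to 0.845 on the log2 scale, against 0.0285, and with it *TP12319* to 6.81, *TP03368* to 5.09, *TP04014* to 5.05 and *TP07411* to −3.14.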

How the data were processed

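RNA of 3 Δ*TP05746* and 3 Δ*TpKu70* libraries was analysed, grouped by the sample titles. Expected counts, deposited without scaling, and FPKM values, scaled by the authors for gene length and library size, come from RSEM. The tools listed in the submitters' processing notes are RSEM 1.2.12, Bowtie2 2.1.0, DESeq2 and BWA 0.7.10-r789, and the reads were mapped to the strain 1-95 genome. A gene not listed in a library was read as 0. Expected counts were rounded, scaled with TMM factors and tested with edgeR 4.0.16 (R 4.3.3). Its test was checked on simulated data. Standard errors were derived from the fold change and its F statistic, and are rough near 0 counts. limma 3.58.1 and DESeq2 1.42.0 served for alternatives. Figures were drawn with matplotlib 3.10.9.

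The members, lists and tests were chosen with earlier results of these data known. Genes named are the 4 members, *TP05746*, *TP10751*, the 10 α-glucosidase, 3 regulator and 3 conidial genes, and the 3 genes of nearest pattern for each tested member. Ratios between genes were chosen after their values were seen. The reference table describes a different strain and matched no gene ID, so coordinates and sequences are not printed. RT-qPCR, gel shift and enzyme measurements were not analysed here.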

Additional observations from a re-analysis of the deposited data

How the results depend on the processing

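At these library totals *TP12319*, *TP03368* and *TP07411* had 0 to 4 counts a library in the strain where they are low, so their fold changes are known only roughly. The call of *TP07411* was lost with library totals (log2 fold change −3.14), limma on log2(FPKM + 1) (−0.82), limma on log2(TPM + 1) (−1.05) and a test against a fold change of 2 (−3.93). With a library left out it ranged from −4.76 to −2.95, *TP04014* from 3.51 to 5.77, *TP12319* from 5.83 to 6.20 and *TP03368* from 3.83 to 8.21, the last being no bound because *TP03368* is at 0 without Δ*TpKu70* replicate 1. A filter of FPKM 5 left out *TP03368* and *TP07411*, filterByExpr left out *TP07411*, and leaving out genes with decimals removed *TP04014*.

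Over all genes, 1550 were higher and 1749 lower. The split was 3290 and 1059 with library totals, 3123 and 1069 with limma on log2(FPKM + 1), 3232 and 1107 with log2(FPKM + 0.1), 3023 and 1137 with log2(TPM + 1), and 741 and 1136 in a test against a fold change of 2. In that last test 1 α-glucosidase gene and 0 regulators were higher, against 2 regulators in edgeR's quasi-likelihood test, with or without adjustment of p, and 2 with DESeq2. With a library left out, higher regulators numbered 1 to 2.

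Same-numbered libraries deviated from their strain means with correlations of −0.0784, −0.0379 and 0.0115, and not every library correlated best with its own number, so the numbers were not taken to pair the libraries. With the replicate number as a block, 1380 genes were higher and 1512 lower, *TP12319*, *TP03368* and *TP04014* had log2 fold changes of 6.01, 4.61 and 4.67, and *TP07411* had −3.63 (adjusted p = 0.098).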

Other observations

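Within Δ*TpKu70*, the low counts did not follow one order. *TP07411* was highest in replicate 2 and lowest in replicate 1, while *TP03368* was detected in replicate 1 alone and *TP12319* had 2, 2 and 1 counts. These values were singled out after they were seen, and no cause was tested.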
